A study of Mus musculus with 1 sample.

Results

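Macrophages of the mouse adrenal gland, from a library dissected as medulla, were taken as cells that held RNA of at least 3 of the 5 genes *C1qa*, *C1qb*, *C1qc*, *Csf1r* and *Tyrobp*, and that carried fewer than 4 of 7 chromaffin genes, fewer than 5 of 9 cortex genes and fewer than 4 of 7 endothelial genes. The members were thus chosen by the measured UMIs of these genes. Of 10139 cells that passed the cell filter, 531 met this rule, which is 5.24% (95% interval 4.81 to 5.69). With a stricter cell filter (1000 genes or more, no more than 10% mitochondrial UMIs) the share was 2.50% (175 macrophages). The filter kept barcodes with 500 to 5000 genes and at most 20% mitochondrial counts, out of 11214 barcodes in all. The paper gives its mice as of mixed backgrounds, backcrossed on CD1. The cells came from mice aged 15 days, for which it names no genetic modification or treatment. Their 10 adrenals (5 animals, males and females) were trimmed of fat and of most of the cortex by hand, digested with enzymes and pooled, and an aliquot of 10000 viable cells gave 1 library of droplet-based single-cell RNA sequencing. Each transcript molecule was counted once by its unique molecular identifier (UMI), read at its 3′ end. With 1 library there are no replicates, so no comparison was tested, and all intervals are exact 95% intervals that cover counting error only.

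Macrophages are tissue phagocytes that take up dead cells and debris, digest them in lysosomes, and recycle their lipid and iron. Most organs are seeded with macrophages before birth and receive further ones from blood monocytes, and their survival depends on the receptor CSF1R and its ligands CSF1 and IL-34. In the adrenal gland they lie beside steroid-producing cortex cells, chromaffin cells that release adrenaline and noradrenaline, and a dense network of capillaries.

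The 5 genes of the rule separated the cells almost completely, and these values describe the choice without testing it. No gene of the 5 was detected in 9089 cells, 1 was detected in 318, 2 in 42, 3 in 17, 4 in 270 and all 5 in 403. Among the macrophages, 5 cells had 3 of the genes, 205 had 4 and 321 had all 5. The gene that was missing was mostly *Csf1r*, the receptor for CSF1 and IL-34, which was detected in 9 of the 205 cells with 4 genes. The 5 cells just inside the threshold had a median of 977 UMIs, and *C1qa* and *C1qb* were detected in all 5 of them but *Csf1r* in none. The 19 cells just outside it, which had 2 of the genes and were under every limit on other lineages, had a median of 1220 UMIs and a different profile. *Tyrobp* was detected in 18 of them and *Csf1r* in 15, but *C1qa* in 1 and *C1qb* in 1, while *Lyz2*, which encodes lysozyme, was detected in 16 and *Ctss*, the lysosomal protease cathepsin S, in 15.

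A further 159 cells had at least 3 of the macrophage genes but reached a limit for another lineage, 55 for chromaffin, 68 for cortex and 55 for endothelial genes, with 18 over more than 1 limit. These mixed cells had a median of 5500 UMIs against 1663 in the macrophages, and 109 of the 159 (68.6%) were called doublets by Scrublet, against 17 of the 531 macrophages (3.20%). They were counted among the other cells. Within the macrophages, 505 (95.1%) had none of the 7 endothelial genes, 392 (73.8%) none of the 7 chromaffin genes and 299 (56.3%) none of the 9 cortex genes, while 8 cells had 3 endothelial genes.

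The macrophages held little RNA. They had a median of 1663 UMIs (lowest 752, highest 7635) and 844 genes per cell, with 2.47% mitochondrial UMIs, and 1022975 UMIs in all. The other groups each reached the limit of 1 lineage only and left out cells with 3 or more of the macrophage genes. Cells with at least 5 of 9 cortex genes (3101 cells) had a median of 5366 UMIs, those with at least 4 of 7 chromaffin genes (2587 cells) 3336, and those with at least 4 of 7 endothelial genes (1874 cells) 2269. A group with at least 3 of 8 fibroblast genes (68 cells) had 1295, and it was not of fibroblasts alone, since the mural genes summed to 1788 CPM and the sustentacular genes to 1659 CPM in it. Cortex cells (30.6%) outnumbered chromaffin cells (25.5%) in this library labelled as medulla. Levels are therefore given as counts per 1000000 UMIs (CPM) summed over a group, and shares of cells with a UMI also after each cell was thinned to 1000 UMIs, which left 473 macrophages and 1730 endothelial cells and dropped 58 and 144. A fold is the ratio of 2 summed levels after 10 CPM was added to each. The endothelial group served as the background for RNA that is free in the suspension. Leaving out cells with 3 or more macrophage genes lowers the levels of macrophage genes in it, so those levels describe the choice as well as the cells. With the 43 such cells put back, an alternative chosen after seeing the data, the endothelial levels of 97 of 431 genes moved beyond their interval, 93 of them upward, with *Adgre1* going from 0.187 to 3.96 CPM and *Adrb1* from 0.187 to 1.08 CPM.

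Many genes were higher in macrophages than in the other cells together. Of 830 genes detected in at least 25% of macrophages, 189 (22.8%) were at least 4-fold higher there than in all other cells together, and of 2248 genes detected in at least 25% of the other cells, 214 (9.52%) were at least 4-fold lower. Over all 16510 genes with at least 10 UMIs in both groups combined, the same folds were passed upward by 435 genes (2.63%) and downward by 511 (3.1%), with a median log2 fold of -0.16. The counts for gene lists below are read beside these last shares. Since 10 CPM is added to each level, a gene under 30 CPM in macrophages could not reach a 4-fold rise.

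The 3 chains of C1q, the molecule that starts the classical complement pathway and tags debris for uptake, led the list. As genes of the rule they describe the cells. *C1qa* reached 8377 CPM (8200 to 8556), *C1qb* 6095 CPM and *C1qc* 4116 CPM, and per cell the median was 15 UMIs for *C1qa*, 11 for *C1qb* and 7 for *C1qc*. In the endothelial group the same genes were at 2.43, 1.31 and 2.24 CPM, which the choice of that group fixed, and at 103, 64.1 and 43.7 CPM with the 43 cells put back. The 3 genes are neighbours on chromosome 4 (GRCm38, the mm10 build), with *C1qb* at 136880126 to 136886200, *C1qc* at 136889801 to 136892936 and *C1qa* at 136895916 to 136898844. *Tyrobp*, the signalling adaptor of several receptors of myeloid cells, was at 3711 CPM, and *Csf1r* at 582 CPM, with a UMI in 62.1% of macrophages.

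PU.1, encoded by *Spi1*, is the transcription factor that many macrophage genes need, and it binds purine-rich sites such as GAGGAAGT. These letters were searched on both strands (reverse complement ACTTCCTC) in a window from 250 bases before to 50 bases after 1 start site of each gene in RefSeq. They occurred in 997 of 27025 genes (3.69%), in 32 of 660 (4.85%) of the 830 genes tested for a higher level that were matched to a window, and in 16 of 143 (11.2%) of the 189 genes that were 4-fold higher and were matched. Of the 25 genes with the largest fold, 19 were matched to a window and 3 held the letters, *C1qc*, *Ctss* and *Ctsc*, which encodes the protease cathepsin C. In *Ctss* the match lay across that start site. For the other pair, 60 bases of the gene's strand are shown because these are among the genes with the largest folds, with the match in capitals (GRCm38.p6, *C1qc* at chr4:136893076-136893135 on the minus strand, *Ctsc* at chr7:88277908-88277967 on the plus strand):
C1qc: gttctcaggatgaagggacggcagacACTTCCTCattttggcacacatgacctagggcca
Ctsc: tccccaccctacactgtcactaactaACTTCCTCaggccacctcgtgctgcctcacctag
A match is a description of the sequence, and binding was not measured. *Spi1* itself was detected at 358 CPM (322 to 396) in macrophages and 0.748 CPM in endothelial cells, or 4.68 CPM with the 43 endothelial cells put back.

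Genes outside the rule gave the same identity. All 15 genes of a macrophage identity list were at least 4-fold higher, with a median log2 fold of 5.66. *Lyz2* was at 5848 CPM (fold 108), *Ctss* at 2734 CPM (fold 105) and *Fcer1g*, the signalling chain of Fc receptors, at 3024 CPM (fold 71.9). *Cx3cr1*, the receptor for fractalkine, was at 1165 CPM (fold 54.8) with a UMI in 78.7% of macrophages. *Adgre1*, which encodes the F4/80 antigen, was at 226 CPM and was detected in 32.6% of macrophages, or 20.7% at 1000 UMIs, against 1.84% of chromaffin cells and 0 of the 1730 endothelial cells. That 0 allows up to 0.173% only for a group without macrophage-positive cells, and with the 43 cells put back the unthinned endothelial share was 0.887%. *Vcam1*, an adhesion molecule, was at 1174 CPM in macrophages and 19.8 CPM in endothelial cells, and *Rgs1*, a regulator of G protein signalling, at 1898 against 1.12 CPM. With the 43 endothelial cells put back, the endothelial levels were 32.9 CPM for *Vcam1* and 25.7 CPM for *Rgs1*.

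**Figure D1:**
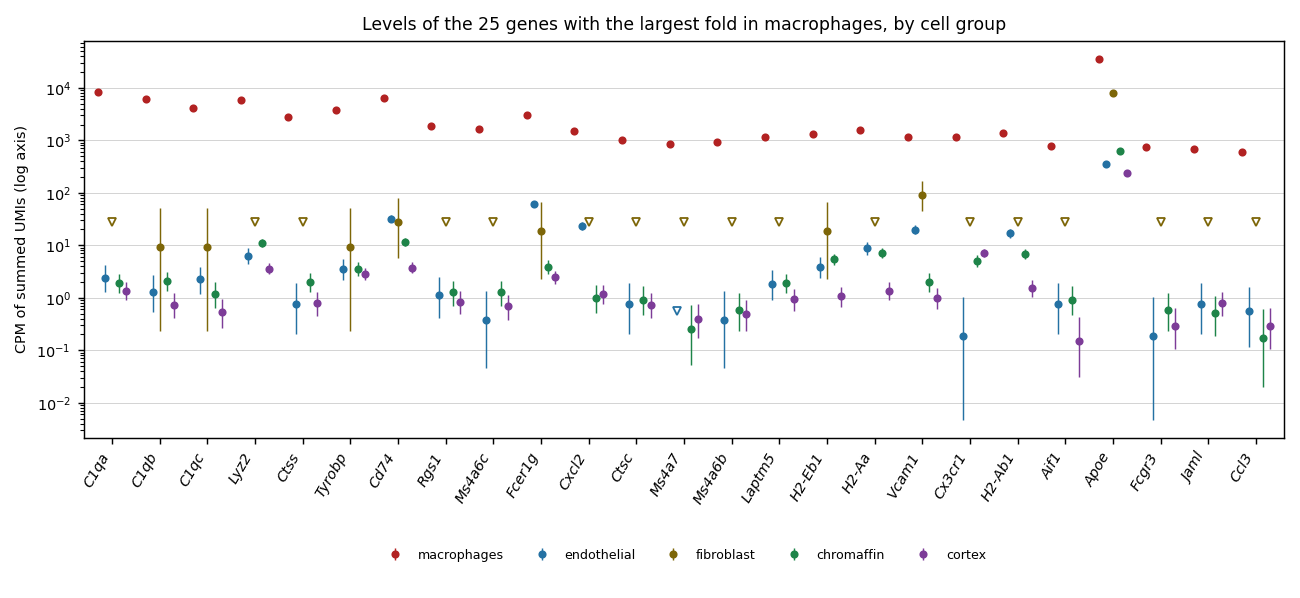
Levels in CPM of summed UMIs (log axis) of the 25 genes with the largest fold in macrophages, ordered by fold, in the macrophages (531 cells) and 4 other cell groups. Points are levels, bars are exact Poisson 95% intervals, and open triangles mark genes without a UMI in a group, drawn at the limit of 3 counts. The macrophage points lie between 610 and 35415 CPM, with *Ccl3* the lowest and *Apoe* the highest, which is also at 8137 CPM in fibroblasts.

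The most abundant transcript of the macrophages was *Apoe*, which encodes apolipoprotein E, a carrier that exports cholesterol from cells. It was at 35415 CPM (35052 to 35782), with a median of 57 UMIs per cell, a 10th percentile of 24 and a highest value of 357. In the fibroblast group it was at 8137 CPM, in chromaffin cells at 636 CPM, in endothelial cells at 356 CPM and in cortex cells at 241 CPM. With the 43 endothelial cells that hold macrophage genes put back, its endothelial level was 688 CPM, above that of chromaffin cells. Next in abundance were *Tmsb4x* at 19518 CPM, *Malat1* at 18525 CPM, *Actb* at 15477 CPM and the ferritin gene *Fth1* at 8707 CPM.

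The transcription factors of the lineage were present with marked differences in level. Of 16 on the list, 5 were at least 4-fold higher and 1 was lower, *Id3*, with a median log2 fold of 1.62. *Maf*, a factor of mature macrophages, was at 623 CPM (fold 7.29 against all other cells) and at 399 CPM in endothelial cells. *Runx1*, a regulator of blood cell development, was at 296 CPM and *Irf5*, a regulator of inflammatory genes, at 50.8 CPM. *Id3* was at 45.9 CPM in macrophages and 756 CPM in endothelial cells. *Spic*, known from the iron-recycling macrophages of the spleen, was low at 25.4 CPM, in 3.20% of cells.

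The ligands of CSF1R had few UMIs in macrophages, with 2 for *Csf1* and 3 for *Il34*. *Csf1r* itself is a gene of the rule and is left out here. On the list of CSF1 and TGF-β genes, 3 of the 8 genes outside the rule were at least 4-fold higher, namely *Csf2ra*, *Csf2rb* and *Tgfbr1*, with a median log2 fold of 1.19. *Csf1* was at 1.96 CPM in macrophages, under the limit of 2.93 CPM that a count of 0 allows, against 37.9 CPM in endothelial cells, while in fibroblasts it had 3 UMIs, at the limit for that group. *Il34* was at 2.93 CPM in macrophages and 120 CPM in the fibroblast group of 68 cells. *Tgfb1* was at 130 CPM in macrophages and 218 CPM in endothelial cells.

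Genes of tissue-resident macrophages ranged from high to nearly absent. Of 14 genes, 12 could be compared and 8 were at least 4-fold higher, with a median log2 fold of 2.96. *Pf4*, a chemokine of platelets and resident macrophages, was at 1870 CPM, *Stab1*, a scavenger receptor, at 551 CPM, *F13a1*, the A subunit of coagulation factor XIII, at 544 CPM, *Mrc1*, the mannose receptor CD206, at 539 CPM, and *Cd163*, the scavenger receptor for haemoglobin, at 295 CPM. *Cbr2*, a carbonyl reductase, was at 114 CPM. *Selenop*, the selenium carrier selenoprotein P, was at 791 CPM and in endothelial cells at 942 CPM. Lower levels were found for *Igf1* at 73.3 CPM, *Fcna* at 43.0 CPM and *Gas6* at 35.2 CPM. *Lyve1*, a hyaluronan receptor of perivascular macrophages, was at 9.78 CPM, below its 199 CPM in endothelial cells. *Timd4*, a phosphatidylserine receptor, was at 9.78 CPM, *Folr2*, a folate receptor, at 2.93 CPM, and *Cd209f* had no UMI.

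Several of these genes were also detected in endothelial cells. *Pf4* was at 439 CPM, *Stab1* at 207 CPM and *Mrc1* at 149 CPM in endothelial cells, while in chromaffin cells they were at 3.03, 1.34 and 0.42 CPM. *Cd163* and *F13a1* had 0 and 0.374 CPM in endothelial cells, or 1.44 and 4.68 CPM with the 43 endothelial cells that hold macrophage genes put back. At least 2 of *Lyve1*, *Timd4*, *Folr2*, *Mrc1* and *Cd163* were detected in 122 of 531 macrophages (23.0%, 19.5 to 26.8) and in 130 of 1874 endothelial cells (6.94%), or in 54 of 473 (11.4%) and 26 of 1730 (1.50%) at 1000 UMIs. With the stricter cell filter the share was 32.6% of 175 macrophages.

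Genes for antigen presentation by MHC class II were detected in some of the macrophages and not in others. All 10 genes of the list were at least 4-fold higher, with a median log2 fold of 4.52. *Cd74*, the invariant chain, was at 6376 CPM, and its UMIs ranged from 0 at the 10th percentile to 7 at the median and 33 at the 90th percentile of cells. The class II chains *H2-Aa*, *H2-Ab1* and *H2-Eb1* were at 1576, 1365 and 1294 CPM, and *Cd86*, a co-stimulatory molecule, at 186 CPM. At least 2 of the 3 chains were detected in 275 of 531 macrophages (51.8%, 47.4 to 56.1), and in 210 of 473 (44.4%) at 1000 UMIs, where 1 of 1730 endothelial cells (0.0578%) had them.

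Markers of other blood cells were mostly low. No cell without RNA of a C1q gene could meet the rule, so blood cells that lack it were left out in advance. Low levels here thus describe the choice as well as the cells. Of 12 monocyte genes, 2 were at least 4-fold higher, *Cd300a* at 94.8 CPM and *Chil3* at 78.2 CPM, with a median log2 fold of 0.643, while 9 were under the 30 CPM that a 4-fold rise needs. The UMIs of *Chil3*, a chitinase-like protein, lay in 10 cells (1.88%), 1 of which held 32 of them. *Ly6c2*, the marker of classical monocytes, was at 4.89 CPM, a ratio to all other cells without added CPM of 3.42 (1.08 to 8.39). *Ccr2*, the receptor that brings monocytes into tissue, was at 14.7 CPM in 13 cells (2.45%), a ratio of 10.4 (5.53 to 18.4). All measured dendritic, neutrophil, T and NK cell and mast cell genes were under 30 CPM, so none could be called higher. Among the dendritic genes *Flt3* was at 1.96 CPM and *Xcr1*, *Clec9a* and *Cd209a* at 0, but *Batf3* was at 27.4 CPM against 3.21 CPM in all other cells, a ratio without added CPM of 8.52 (5.48 to 12.8), and *Itgax* was at 12.7 CPM (ratio 46.6, 19.9 to 109). Among the neutrophil genes *S100a8* was at 1.96 CPM and *S100a9* at 0, but *Csf3r* was at 15.6 CPM (ratio 43.8, 20.7 to 92.3). Of the T and NK cell genes *Cd3e* was at 1.96 CPM and *Cd3g* at 0, but *Cd4* was at 11.7 CPM (ratio 69.9, 26.3 to 197) and *Gzma* at 19.6 CPM (ratio 2.20, 1.33 to 3.44). Of the mast cell genes *Cpa3* was at 0. Of 6 B cell genes, 2 were higher, *Ighm* at 61.6 CPM and *Cd79b*, detected in 7.53% of cells, while *Pax5* was at 0 and *Cd79a* at 5.87 CPM. The summed levels in macrophages and in endothelial cells were 275 and 31.6 CPM for the monocyte, 65.5 and 87.5 CPM for the dendritic, 17.6 and 7.29 CPM for the neutrophil, 48.9 and 6.36 CPM for the T and NK, and 130 and 167 CPM for the B cell list. In endothelial cells most of the dendritic sum was *Zbtb46* (81.3 CPM) and most of the B cell sum *Ebf1* (150.3 CPM). Without these 2 genes, an alternative chosen after seeing the data, the sums were 61.6 and 6.17 CPM for the dendritic and 125 and 16.6 CPM for the B cell list.

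**Figure D2:**
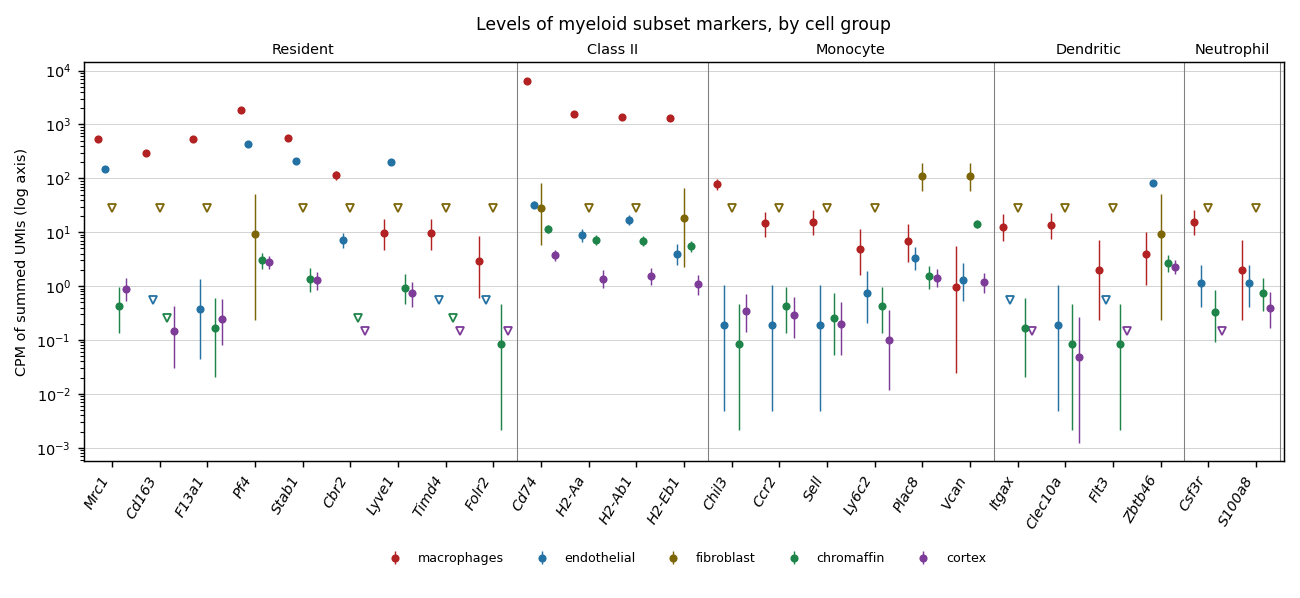
Levels in CPM of summed UMIs (log axis) of resident, class II, monocyte, dendritic and neutrophil marker genes in the macrophages and 4 other cell groups. Points are levels, bars are exact Poisson 95% intervals, and open triangles mark genes without a UMI in a group, drawn at the limit of 3 counts. In macrophages *Pf4*, *Mrc1*, *Cd163*, *F13a1*, *Cd74*, *H2-Aa*, *H2-Ab1* and *H2-Eb1* lie above 200 CPM, while *Lyve1*, *Timd4*, *Folr2*, *Ly6c2* and *Ccr2* lie below 20 CPM.

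RNA of neighbouring cells was low but present. The 7 chromaffin genes of the rule summed to 251 CPM in macrophages and 152 CPM in endothelial cells, and the 9 cortex genes to 420 and 650 CPM. Of 10 other chromaffin genes, 9 were at least 4-fold lower, with a sum of 326 CPM in macrophages against 134 CPM in endothelial cells. *Pnmt*, the enzyme that makes adrenaline, was at 149 CPM in macrophages, 53.5 CPM in endothelial cells and 8328 CPM in chromaffin cells. Of 9 other cortex genes, 5 were lower (526 and 582 CPM), and of 8 other endothelial genes, 6 were lower, with *Cldn5*, a tight junction protein, at 3.91 CPM. The lists for fibroblasts (8 genes), mural cells (6 genes) and sustentacular cells (6 genes) summed to 56.7, 8.80 and 56.7 CPM in macrophages, and each gene was under 30 CPM. The haemoglobin gene *Hbb-bs* was at 1844 CPM in macrophages, but 1 cell held 826 of its 1886 UMIs. Without that cell, an alternative chosen after seeing the data, it was at 1041 CPM (979 to 1105), against 1019 CPM in endothelial cells. Among genes detected in at least 25% of the other cells, those with the lowest folds were *Chgb* and *Chga* of chromaffin granules and the steroid synthesis genes *Hsd3b1*, *Cyp11a1* and *Star*, all among the genes that the rule limited. The part of free RNA in these levels was not tested.

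Complement genes other than C1q were selective. Of the 11 complement genes outside the rule that could be compared, 4 were at least 4-fold higher and 1, *C3*, was lower, with a median log2 fold of 1.43. The receptors *C3ar1* and *C5ar1*, which sense complement fragments, were at 327 and 132 CPM, and *Cfp*, the positive regulator properdin, at 186 CPM. *C3*, the central component, was at 10.8 CPM in macrophages and 239 CPM in cortex cells. Of 14 genes for Fc and Toll-like receptors and their partners, 11 were higher (median log2 fold 3.72), among them *Fcgr3* at 732 CPM, *Fcgr1* at 588 CPM and the nucleic acid sensor *Tlr13* at 120 CPM. *Tlr4*, the receptor for endotoxin, was at 21.5 CPM.

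Uptake of dead cells was represented by some of its receptors. Of 17 genes, 4 were at least 4-fold higher, *Stab1*, *Rac2*, *Axl* and *Mertk*, and *Dock1* was lower, with a median log2 fold of 1.01. *Axl* and *Mertk*, receptors for the bridging protein GAS6, were at 210 and 172 CPM, and the related *Tyro3* had no UMI. *Gas6* was at 35.2 CPM in macrophages and 68.6 CPM in endothelial cells. Lysosomal genes were broadly high, with 14 of 22 at least 4-fold higher and none lower (median log2 fold 2.37). *Ctsb* was at 2192 CPM, *Psap*, the precursor of sphingolipid activators, at 2155 CPM, *Npc2*, which moves cholesterol out of lysosomes, at 1191 CPM and *Lgmn*, the protease legumain, at 572 CPM. *Lipa*, the lysosomal acid lipase, was at 134 CPM in both macrophages and all other cells, and at 57.0 CPM in endothelial cells.

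Of 19 lipid genes outside the rule, 6 were at least 4-fold higher and 2, *Fabp4* and *Cd9*, were lower (median log2 fold 0.431). *Plin2*, which coats lipid droplets, was at 557 CPM (fold 5.60), *Msr1*, a scavenger receptor for modified lipoprotein, at 293 CPM, *Apoc2* at 247 CPM and *Trem2*, a lipid-sensing receptor, at 215 CPM. *Gpnmb* at 3.91 CPM and *Spp1* at 6.84 CPM, which mark lipid-laden and scar-associated macrophages, were close to the limit of 2.93 CPM. *Soat1*, which esterifies cholesterol, was at 206 CPM in macrophages, 28.8 CPM in endothelial cells and 290 CPM in all other cells, which include the cortex cells. For iron and haem, 6 of 11 genes were higher (median log2 fold 2.21). *Trf*, which encodes transferrin, was at 903 CPM against 4.67 CPM in endothelial cells, or 12.4 CPM with the 43 endothelial cells put back. *Slc40a1*, the iron exporter ferroportin, was at 207 CPM, *Hmox1*, which degrades haem, at 200 CPM, and *Ftl1* at 6832 CPM (fold 4.62). *Tfrc*, the transferrin receptor, was at 12.7 CPM.

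Chemokines were far more abundant than cytokines. Of 13 chemokine genes, 12 were at least 4-fold higher (median log2 fold 4.21). *Cxcl2*, which attracts neutrophils, was at 1517 CPM (fold 63.5), with a UMI in 47.8% of macrophages but a highest value of 58 UMIs in a cell. *Ccl4* was at 725 CPM, *Ccl3* at 610 CPM, *Cxcl16* at 573 CPM and *Ccl6* at 333 CPM. *Cxcl10*, an interferon-induced chemokine, was at 20.5 CPM in macrophages and 54.2 CPM in endothelial cells. Of 7 cytokine genes that could be compared, 3 were higher (median log2 fold 1.28), *Il1b* at 239 CPM, *Tnf* at 119 CPM and *Il18* at 73.3 CPM. *Il6*, *Il12b* and *Ifnb1* had no UMI and *Il10* had 0.978 CPM. Among chemokine and purine receptors, 8 of 10 were higher (median log2 fold 2.46), including *P2ry6*, a sensor of the nucleotide UDP, at 196 CPM and *Ccr1* at 185 CPM. *P2ry12*, a microglia marker, was at 19.6 CPM.

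Of 16 growth factor genes that could be compared, 11 of them under 30 CPM in macrophages, 2 were at least 4-fold higher, *Grn* at 800 CPM and *Igf1* at 73.3 CPM, and *Vegfa* was lower at 1.96 CPM (median log2 fold -0.158). *Bdnf*, *Gdnf* and *Nrg1*, which act on neurons and glia, had no UMI. Of 10 interferon-induced genes, 1 was higher, *Ifi27l2a* at 497 CPM (median log2 fold 0.63), while *Ifit1* was at 3.91 CPM.

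The adrenal gland secretes catecholamines and steroids, and receptors for these were examined. Of 10 hormone receptor genes that could be compared, 1 was at least 4-fold higher, *Adrb1* (median log2 fold 0.268). *Adrb1*, the β1 adrenergic receptor, was at 69.4 CPM (54.2 to 87.5) in macrophages, 0.187 CPM in endothelial cells, 0.147 CPM in cortex cells, 0.0841 CPM in chromaffin cells and 9.21 CPM (1 UMI) in fibroblasts. It was detected in 11.9% of macrophages and, at 1000 UMIs, in 6.98% of macrophages and 0 of 1730 endothelial cells (up to 0.173% for that group). With the 43 endothelial cells that hold macrophage genes put back, the unthinned endothelial share was 0.313%. *Adra2a* had no UMI. The glucocorticoid receptor *Nr3c1* did not set macrophages apart, at 64.5 CPM against 91.0 CPM in endothelial and 65.7 CPM in chromaffin cells.

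Of 9 genes known to be induced by glucocorticoids, 3 were at least 4-fold higher, *Tsc22d3*, *Cd163* and *Mrc1* (median log2 fold 1.80), the latter pair also being markers of resident macrophages. *Tsc22d3*, which encodes the anti-inflammatory protein GILZ, was at 464 CPM in macrophages, 378 CPM in fibroblasts, 159 CPM in endothelial, 78.7 CPM in chromaffin and 13.6 CPM in cortex cells. *Dusp1*, a phosphatase, was at 902 CPM and *Fkbp5*, a chaperone of the receptor, at 198 CPM, against 355 and 128 CPM in endothelial cells. The kinase *Sgk1* and the transcription factor *Klf9* went the other way, with 82.1 and 146 CPM in macrophages and 483 and 353 CPM in endothelial cells.

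**Figure D3:**
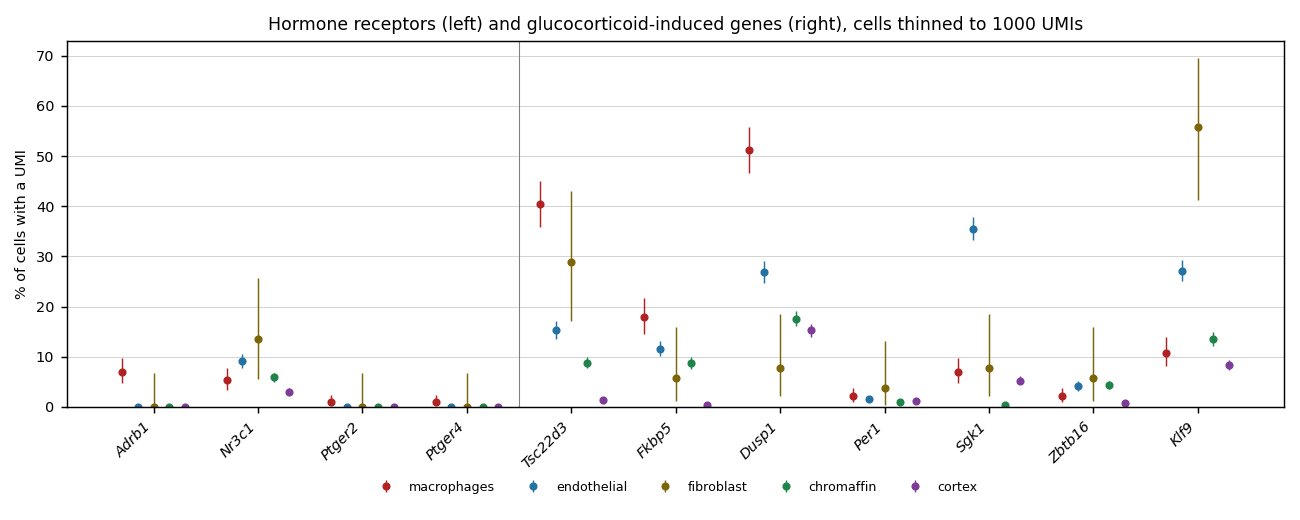
Share of cells (%) with at least 1 UMI of hormone receptor genes (left) and of genes known to be induced by glucocorticoids (right), after each cell was thinned to 1000 UMIs, in the macrophages (473 cells) and 4 other cell groups. Points are shares and bars are exact binomial 95% intervals. *Adrb1* was detected in 6.98% of macrophages and in 0 of 1730 endothelial cells, and *Tsc22d3* in 40.4% of macrophages and 15.3% of endothelial cells.

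Genes that respond within minutes to stimulation were abundant in every group, with the highest sum in macrophages. Those on the list summed to 8625 CPM in macrophages, 5967 CPM in endothelial, 5203 CPM in chromaffin, 4405 CPM in fibroblast and 2499 CPM in cortex cells. Of 17 immediate-early genes, 5 were at least 4-fold higher in macrophages, *Ier3*, *Klf6*, *Atf3*, *Egr2* and *Zfp36* (median log2 fold 1.05). *Fos* was at 2045 CPM in macrophages and 561 CPM in endothelial cells, whereas *Egr1* was at like levels (563 and 570 CPM). *Jun* was slightly lower in macrophages (1665 and 1919.9 CPM, ratio 0.867, 0.823 to 0.913). Of 8 heat shock genes, *Hspa1a* (448 CPM) and *Hspa1b* (392 CPM) were higher and *Hspb1* was lower (median log2 fold 0.512). *Hspa1a* and *Hspa1b* are near-identical copies, so the division of UMIs between them is uncertain.

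At least 3 of 16 cell cycle genes were detected in 73 of 531 macrophages (13.7%, 10.9 to 17.0), or 42 of 473 (8.88%) at 1000 UMIs. With the stricter cell filter, which keeps cells with more genes, the share was 57 of 175 (32.6%). At 1000 UMIs the share was 20.5% in endothelial, 6.04% in cortex and 3.64% in chromaffin cells. None of the 16 genes passed a 4-fold difference (median log2 fold 0.367). The cells came from mice of both sexes, with *Xist* in 69 macrophages, at least 1 of 4 Y-linked genes in 78 and both in 1. The median log2 fold of these 5 genes was -0.394.

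The macrophages were then clustered alone, with the log-normalization, variable features and 10 principal components of the study, which gave 3 clusters. The genes that define a cluster describe it and are not tested. Cluster 1 had 269 cells (50.7%) with a median of 1805 UMIs and held 15 of the 17 called doublets. Cluster 2 had 217 cells (40.9%) with 1424 UMIs. Cluster 3 had 45 cells (8.47%, 6.25 to 11.2) with 3086 UMIs. The division between clusters 1 and 2 depended on the settings, since at a resolution of 0.2 they formed, with 1 cell of cluster 3, a cluster of 487 cells. With 30 principal components the cluster led by cycling genes had 129 cells (24.3%), 87 of them from cluster 1.

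Cluster 3 was a cycling macrophage-like cluster. Each of the 8 cycling markers had a UMI in 50% or more of its cells, led by *Birc5*, *Mki67* and *Top2a*, with *Top2a*, a topoisomerase of dividing cells, at 1096 CPM against 16.3 and 18.5 CPM in clusters 1 and 2. *C1qa* and *Csf1r*, genes of the rule by which all these cells were chosen, were at 6325 and 434 CPM. *H2-Aa* was at 372 CPM there, against 1893 CPM in cluster 1 and 1573 CPM in cluster 2, and *Lyz2* at 2901 CPM against 5681 and 7448 CPM. *Hbb-bs* was at 5760 CPM in cluster 3 and at 71.0 CPM without 1 cell that held 826 of its 836 UMIs, against 944 and 1626 CPM in clusters 1 and 2.

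Cluster 2 was led by *Cd163*, *Ms4a7*, *Cited2* and *Pf4*, followed by *Slc40a1*, *Gpx3*, *Timp2*, *Clec4n* and *Fcgr2b*. *Cd163* was at 613 CPM against 154 CPM in cluster 1, and *Pf4* at 3516 against 1034 CPM. *Mrc1* was at 918 against 356 CPM and *Apoe* at 54304 against 28030 CPM. *Lyve1* remained low at 9.24 CPM. Of the 7 resident markers, 1 had a UMI in 50% or more of its cells. The count was 0 in cluster 1 and 2 in cluster 3, which had more UMIs per cell (median 3086). Cluster 2 was thus given no name beyond its leading genes. Cluster 1 was led by *Atf3*, *Ly6a*, *Lsp1* and *Lgals3*, followed by *Ccnd1*, *Hspe1*, *Basp1*, *Crip1*, *Cd52* and *Ckb*, at folds of 1.86 to 3.80. Some of these were more abundant in another group than in macrophages. *Ly6a* was at 271 CPM in macrophages and 1007 CPM in endothelial cells, but at 156 CPM in all other cells together. *Ccnd1* was at 114 CPM in macrophages and 707 CPM in endothelial cells, and *Hspe1* at 343 CPM against 1341 CPM in all other cells. *Cd52*, a surface glycoprotein of leukocytes, was at 946 CPM there and 326 CPM in cluster 2. All 4 class II markers had a UMI in 50% or more of the cells of cluster 1, with *H2-Aa* in 66.5% against 42.4% in cluster 2, with summed levels of 1893 and 1573 CPM. *Ighm*, the µ heavy chain, was at 92.2 CPM in cluster 1 and 18.5 CPM in cluster 2, and *Ifi27l2a* at 598 and 271 CPM.

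**Figure D4:**
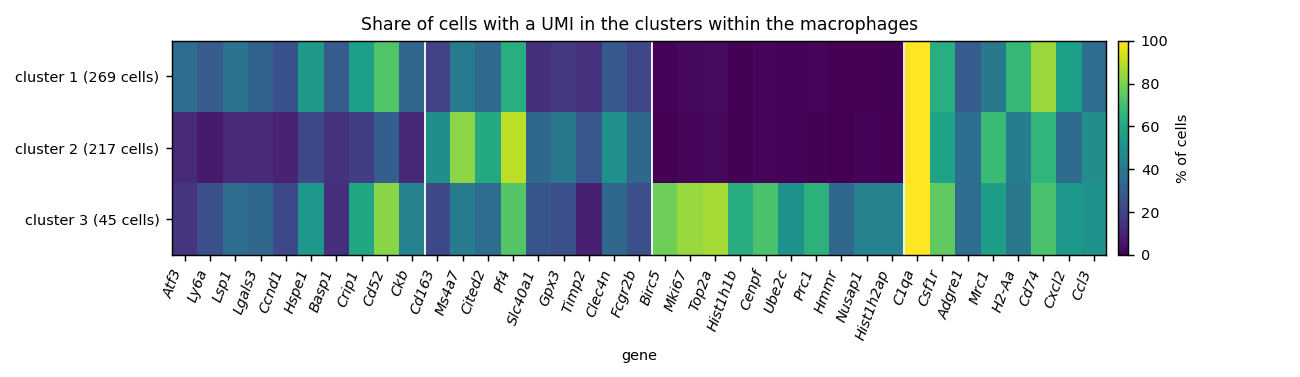
Share of cells (%, colour) with at least 1 UMI of each gene in the 3 clusters within the macrophages. From left to right, leading genes of clusters 1, 2 and 3 and 8 further genes are separated by white lines. The cycling genes are detected mostly in cluster 3, where *Top2a* reaches 86.7% against 2.97% in cluster 1. *C1qa*, a gene of the rule that chose the cells, is detected in 100% of the cells of each cluster.

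Detection of genes in the same cell was compared in the 473 macrophages thinned to 1000 UMIs. Of 284 distinct pairs of genes or gene sets examined, some in both directions, 39 had shares whose intervals did not overlap in at least 1 direction. Cells with and without class II (210 and 263 cells) were alike in several resident genes. *Mrc1* was detected in 38.6% (32.0 to 45.5) of cells with class II and 36.1% (30.3 to 42.2) of those without, and *Cd163* in 22.9% (17.4 to 29.1) and 20.9% (16.2 to 26.3). The intervals lay apart for 3 of 38 partners, all less frequent with class II, namely *Pf4* (52.9 and 71.5%), *Trem2* (9.52 and 25.1%) and *Il1b* (9.05 and 18.6%).

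For cells with and without *Cd163*, the intervals lay apart for 8 of 38 partners. Cells with *Cd163* (103 cells) more often had *Ms4a7* (70.9% against 39.7%), *Pf4* (79.6% against 58.6%), *F13a1* (45.6% against 30.3%) and *Cbr2* (21.4% against 8.65%) than cells without, and less often *Ifi27l2a* (14.6% against 32.2%). The intervals overlapped for the resident genes *Mrc1* (47.6% against 34.3%) and *Stab1* (48.5% against 38.6%). For *Pf4* the intervals lay apart for 10 of 38 partners. Cells with *Pf4* (299 cells) more often had the iron genes *Slc40a1* (20.1% against 8.62%) and *Hmox1* (13.7% against 5.17%).

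For cells with and without *Cxcl2* (196 and 277 cells), the intervals lay apart for 8 of 38 partners. Those with *Cxcl2* more often had *Ccl4* (45.4% against 25.6%), *Il1b* (23.0% against 8.30%) and *Ccl3* (42.3% against 28.9%). They also more often had the stimulation genes *Fos* (77.6% against 59.2%), *Atf3* (31.6% against 10.8%) and *Egr1* (42.3% against 26.4%) and the heat shock gene *Hspa1a* (44.9% against 27.4%). *Ms4a7* went the other way and was less frequent with *Cxcl2* (38.3% against 52.3%). Cells with *Ccl3* had *Ccl4* in 59.5% against 20.3%.

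**Figure D5:**
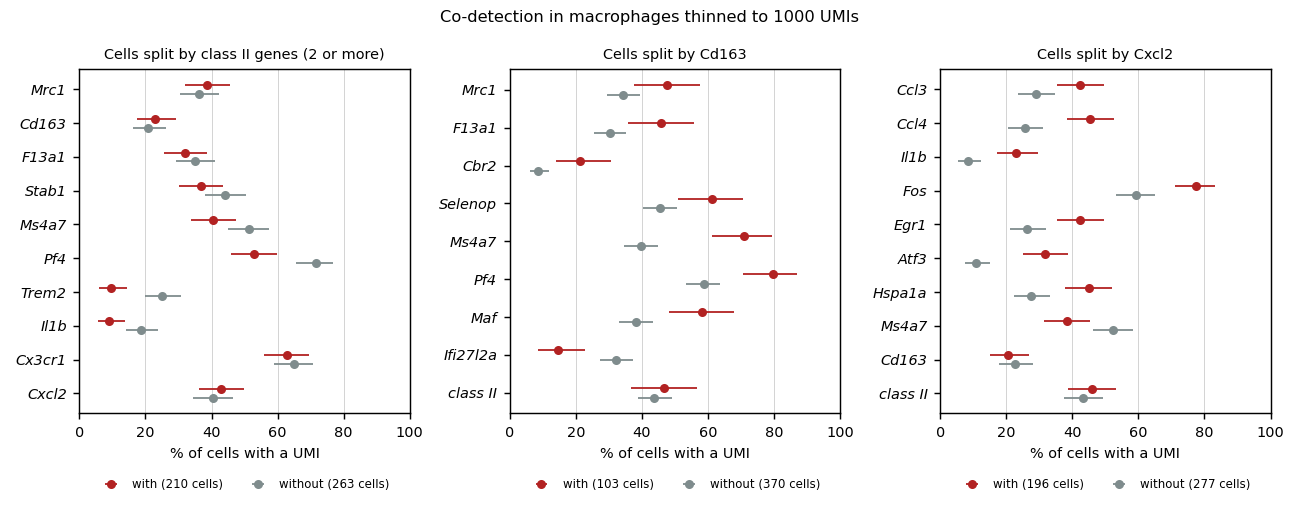
Share (%) of macrophages thinned to 1000 UMIs in which a partner gene was detected, for cells with (red) and without (grey) at least 2 class II chains (left), *Cd163* (middle) and *Cxcl2* (right). Points are shares and bars are exact binomial 95% intervals. *Mrc1* and *Cd163* are detected at like shares with and without class II (38.6 and 36.1% for *Mrc1*), while *Ms4a7* is at 39.7% without and 70.9% with *Cd163*, and *Atf3* at 10.8% without and 31.6% with *Cxcl2*.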

How the data were processed

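The authors made the deposited UMI count matrix with Cell Ranger 4.0.0 on mm10, per the submitters' processing notes. It holds 32285 genes, 11214 barcodes and 51421499 UMIs, without normalization. The members and gene lists were chosen with earlier results of these data known. Named genes were the 25 with the largest fold, the 10 most abundant, the 10 with the largest fold lower, the 10 leading genes of each cluster and the listed genes, and folds used a pseudocount of 10 CPM. A fold of 4 was the limit for calling a gene higher or lower, since 1 library allows no test. Intervals were Poisson for levels and Clopper-Pearson for shares. A count of 0 was read as under 3 counts. Clusters came from Seurat 5.3.0 in R 4.3.3 (resolution 0.4, 10 principal components, 2000 variable features). Doublets were called with Scrublet in scanpy 1.11.5 at an expected rate of 8% and kept. Other steps used Python 3.11.15, numpy 2.4.6, scipy 1.17.1, pandas 2.3.3 and matplotlib 3.10.9. The fold calculation was tested on simulated data. Gene positions and promoter windows came from RefSeq on GRCm38.p6. The alternatives were stricter cell filters, stricter rules, doublets removed, other pseudocounts, detection and depth, and other cluster settings. A few genes that this rule covers are not reported here.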

Additional observations from a re-analysis of the deposited data

Results flagged for a closer look

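Some barcodes that the comparisons did not use also held macrophage genes. Of 1075 barcodes outside the cell filter, 86 (8%, 6.45 to 9.79) met the gene rule for macrophages. Among cells that passed the filter, 5.24% (4.81 to 5.69) met the same rule. All 86 had under 500 genes, with a median of 426 genes and 701 UMIs.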

How the results depend on the processing

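Of 42 values under alternative settings for 7 results, 30 stayed within the error or within 1.5 times the reported count and 12 moved. With a stricter cell filter (1000 genes or more, no more than 10% mitochondrial UMIs), the share of macrophages was 2.50%, the share with at least 2 resident genes 32.6% and the share with at least 3 cell cycle genes 32.6%. With under 2 genes of each other lineage, the share of macrophages was 4.38%. At 1000 UMIs per cell the shares were 11.4% for resident genes, 44.4% for class II and 8.88% for cell cycle genes, and with detection at 2 UMIs they were 7.34, 40.3 and 7.16%. Without the detection filter 435 genes were at least 4-fold higher. Under the other settings the counts of higher genes were 185 to 234 and of lower genes 209 to 254. Without the 159 mixed cells in the comparison, an alternative chosen after seeing the data, they were 191 and 213. At a resolution of 0.8 there were 5 clusters, against 2 at 0.2 and 2 with 30 principal components. Of 431 gene levels, 137 moved under the stricter cell filter, 63 as means of per-cell CPM, 47 under the stricter lineage limit, 34 without doublets and 0 with at least 4 macrophage genes. The causes of these moves were not tested. No paired analysis was possible because there is 1 library, and no replicate could be left out. Low depth limits genes near 3 UMIs (2.93 CPM), and mice cannot be told apart.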
